A study of Mus musculus with 5 samples.

Results

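Regulators of oxidative metabolism and of the response to low oxygen were followed in the soleus, a slow postural calf muscle of the hindlimb: Hif1a, Arnt, Ppara, Pparg, Tfam and Ucp3 (probes 12B, 12C, 12F, 12G, 14I and 3O). They were chosen by gene name, and each has 1 probe on the array, so they make up 6 of 223 probes and 6 of 203 named genes. The samples were muscles of 5 mice labelled wt, of strain C57Bl/6, all reloaded, meaning that the muscle bore weight again, and all at day 7 by the series title. Their titles are numbered 1, 3, 4, 5 and 6, and they are called mice 1, 3, 4, 5 and 6 here. Total RNA came from frozen sections by a column kit, and 3 microgram went onto an array. The labels used here give neither the age nor the sex of the mice, do not say whether muscles were pooled, and put all samples in 1 group. Muscle of unloaded or untreated mice was not analysed here, so the values describe levels and their differences between mice, not a response to reloading.

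Hif1a encodes the oxygen-regulated subunit of the transcription factor HIF-1, and Arnt encodes its constitutive partner. The protein of Hif1a is marked for breakdown in the presence of oxygen through the ligase subunit encoded by Vhl, so that much of the control acts on the protein and not on the transcript. PPAR-alpha and PPAR-gamma, the products of Ppara and Pparg, are nuclear receptors that bind DNA with a retinoid X receptor. The first drives genes of fatty acid oxidation in muscle and liver, and the second directs fat cell formation and is also active in macrophages. Tfam encodes the factor that packages and transcribes the mitochondrial genome. Ucp3 encodes an inner mitochondrial membrane carrier found mainly in skeletal muscle, whose transcript is known to respond to fatty acids and PPARs.

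All 6 genes had promoter windows in the RefSeq table (build GRCm38.p6), which lists 3 alternative starts for Pparg and 1 for each other gene. The 250 bases before the start are shown for Hif1a, Arnt, Ppara and Ucp3. Hif1a and Arnt had the same order of mice as deposited, and the lowest mouse of Ppara was also theirs. Ucp3 was highest in that mouse. Pparg was lowest in that mouse as well, but its windows are not shown. Capitals mark 3 motifs on either strand, searched as the letters ACGTG and GCGTG, the core bound by HIF-1, and AGGTCA, the element of which nuclear receptor sites are made. ACGTG read on both strands can overlap with itself, as it does in CACGTG. The windows lie at chr12:73907617-73907866, plus strand, for Hif1a, at chr3:95434140-95434389, plus strand, for Arnt, at chr15:85735526-85735775, plus strand, for Ppara and at chr7:100472741-100472990, plus strand, for Ucp3.
Hif1a: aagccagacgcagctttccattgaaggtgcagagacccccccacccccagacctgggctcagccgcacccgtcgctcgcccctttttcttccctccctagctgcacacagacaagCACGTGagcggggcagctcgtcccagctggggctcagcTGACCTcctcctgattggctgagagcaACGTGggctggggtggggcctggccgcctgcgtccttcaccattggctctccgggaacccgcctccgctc
Arnt: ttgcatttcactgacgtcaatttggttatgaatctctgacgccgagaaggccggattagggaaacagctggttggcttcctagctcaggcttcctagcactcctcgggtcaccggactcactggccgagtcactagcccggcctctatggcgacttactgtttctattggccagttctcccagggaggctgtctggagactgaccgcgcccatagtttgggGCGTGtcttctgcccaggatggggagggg
Ppara: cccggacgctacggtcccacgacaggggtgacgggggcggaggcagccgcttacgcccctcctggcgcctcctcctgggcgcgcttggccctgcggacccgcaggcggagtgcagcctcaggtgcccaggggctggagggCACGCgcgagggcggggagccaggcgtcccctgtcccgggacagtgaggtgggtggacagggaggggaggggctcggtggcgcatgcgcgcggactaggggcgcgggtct
Ucp3: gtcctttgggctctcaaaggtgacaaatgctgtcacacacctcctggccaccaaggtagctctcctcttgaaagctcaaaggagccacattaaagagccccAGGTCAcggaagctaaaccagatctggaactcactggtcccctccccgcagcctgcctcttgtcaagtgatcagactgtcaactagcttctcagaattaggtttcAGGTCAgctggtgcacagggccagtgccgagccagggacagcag

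The Hif1a window held ACGTG at 3 places, beginning 135, 134 and 70 bases before the start, of which the first and second overlap in CACGTG, and AGGTCA once on the minus strand, 97 bases before the start. The Arnt window held GCGTG once, 29 bases before the start, and the Ppara window held it once on the minus strand, 110 bases before the start. Ucp3 held AGGTCA at 149 and 44 bases before the start and neither HIF core. Of the Pparg windows, 1 held GCGTG on the minus strand, at 242 and 8 bases, and AGGTCA at 28 bases before the start. Another held only AGGTCA, at 9 bases, and the last held no match. The Tfam window held GCGTG once on the minus strand, 231 bases before the start. Over all 32851 windows of this length in the table, 16.6% held ACGTG, 28.2% GCGTG and 14.0% AGGTCA. A direct repeat of AGGTCA with 1 base between the copies, the usual site of a PPAR with its partner, was in none of the windows of the 6 genes and in 0.0335% of all windows. These matches describe letters only. No binding was measured.

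The arrays differed in overall brightness and in how far values fell below 0, which bears on dim probes such as these. The total deposited intensity per array ran from 70.8 to 137. The most negative value of an array ran from -0.0041 in mouse 4 to -0.0168 in mouse 1. The size of that most negative value is used here as a rough limit, below which a positive intensity is no larger than the negative excursions of the same array. Tissue identity was checked on fixed markers. All 6 muscle fibre markers on the array (Myh7, Myh2, Myh1, Myh4, Mb and Des) were above 0 in every mouse, while none of 7 immune markers was. Of those 7, Btk was above 0 in 4 mice, Mmp12 in 1 and the others in none. All 7 endothelial markers were also above 0 in every mouse, as whole muscle contains vessels. Of all 223 probes, 65.9% were above 0 in every mouse. All 6 muscle fibre markers, 4 of the 7 endothelial markers (57.1%) and none of the immune markers exceeded the limit on all 5 arrays. That limit was exceeded on all 5 arrays by 45.3% of all probes. The fixed nerve and blood markers had no probe among those named. The samples are whole muscle, so fewer cells of a type and less RNA per cell cannot be told apart.

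Of the 6 genes, 3 (Ppara, Arnt and Ucp3) gave a deposited signal above 0 on all 5 arrays, against 65.9% of the 223 probes. Hif1a and Pparg were above 0 on 4 arrays, with mouse 1 the exception in both, and Tfam on 1. Against the stricter limit, Ucp3 alone exceeded the size of the lowest value on all 5 arrays, which 45.3% of all probes did. Arnt and Ppara exceeded it on 4 arrays, Hif1a and Pparg on 3, and Tfam on none. A value at or under 0 does not show that a transcript was absent.

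**Figure D1:**
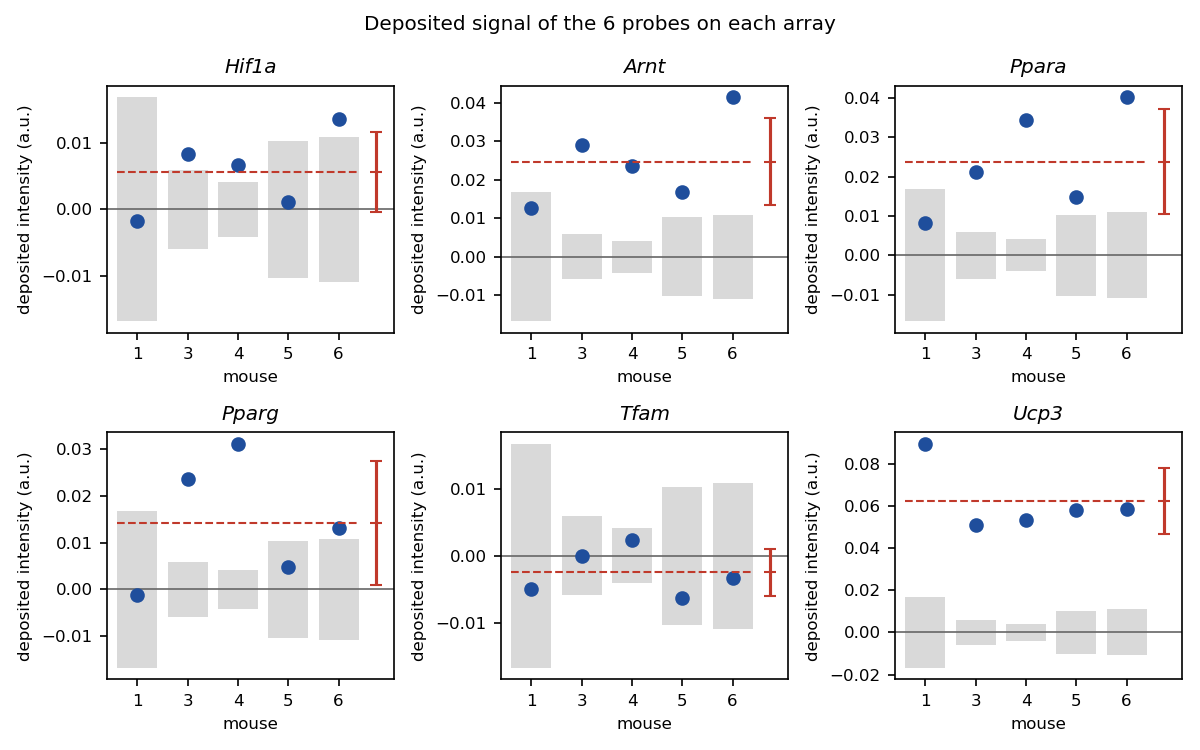
Deposited intensity (arbitrary units, linear axis that differs by panel) of the 6 probes in mice 1, 3, 4, 5 and 6. Points are single arrays, the dashed line and the bar at the right give the mean and SD over 5 mice, and grey blocks span plus and minus the size of the most negative value of that array. Ucp3 lies above the grey block in every mouse, Arnt and Ppara in all but mouse 1, and Tfam in none.

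Hif1a, the regulated HIF-1 subunit, was dim. Its deposited intensity was -0.0017, 0.0083, 0.0066, 0.0011 and 0.0136 in mice 1, 3, 4, 5 and 6 (0.00558 ± 0.00604, SD, n = 5). Mouse 6 was highest, mice 1 and 5 lay within the limit set by negative values on their arrays, and the SD exceeded the mean. The values above the limit, in mice 3, 4 and 6, were between 1.25 and 1.61 times that limit.

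Arnt, the constitutive partner, was measured more firmly. Its deposited intensity was 0.0126, 0.0291, 0.0235, 0.0169 and 0.0415 in mice 1, 3, 4, 5 and 6 (0.0247 ± 0.0113, SD, n = 5). The highest mouse was 3.29 times the lowest, and only mouse 1 stayed under the limit. From lowest to highest the mice ran 1, 5, 4, 3 and 6, the same order as for Hif1a. Of all pairs of probes with 5 distinct values, 3.09% had identical orders, and 7 of 220 other probes had the order of Hif1a. This shared order did not hold when each array was shifted so that its lowest value was 0. Hif1a was then lowest in mouse 4, at 0.0107, and Arnt in mouse 5, at 0.0272, and mouse 6 stayed highest for both, at 0.0245 and 0.0524.

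Quantile normalisation, which gives every array the same distribution of signal, put Arnt at 0.0236 ± 0.00779 (SD, n = 5), a coefficient of variation (CV, the SD divided by the mean, in percent) of 32.9%. Mouse 1 was at 0.0103 and the other mice between 0.0236 and 0.0298. Without mouse 1 the CV was 10.6%. The spread of Arnt thus rests on that array, where its deposited value was 0.750 times the limit.

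Vhl, which encodes the subunit that recognises the HIF-alpha protein, was the only HIF pathway regulator of the fixed list on the array, and it was at or below 0 in all 5 mice, from -0.0128 in mouse 1 to -0.0012 in mouse 4. Cited2, whose product competes with HIF for a coactivator, was named after its values were seen. It was above 0 in all 5 mice, at 0.0764, 0.0299, 0.0312, 0.0212 and 0.0373 as deposited in mice 1, 3, 4, 5 and 6. Mouse 1 was thus the highest for Cited2 and the lowest for Arnt and Hif1a. As deposited it was the highest for 31.4% and the lowest for 31.8% of all probes.

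Of 19 HIF target genes on the array, 18 were above 0 in every mouse, or 94.7% against 65.9% of all probes, and 11 (57.9% against 45.3%) also exceeded the limit on all 5 arrays. The exception was Edn1, the vasoconstrictor endothelin, above 0 only in mouse 4. The median CV of the 18 was 22.4%, beside 33.1% over the 146 probes with a CV, and 40.3% beside 45.2% as deposited. Aldoa, a glycolytic aldolase, had the smallest, at 8.37%, and 28.7% as deposited. Cdkn1a, a cell cycle inhibitor, had the largest, at 139%, with a deposited value of 0.0645 in mouse 1 and 0.0037 to 0.0155 in the others. In mouse 1, where Arnt lay under its own mean (log2 deviation of -1.11), the median deviation of the 18 targets was 0.15 (0.35 as deposited, -0.15 scaled to the array total and -0.46 scaled to control genes). The control genes Gapdh and Pgk1 are also among these targets, so the last value is not independent of the list. All 147 probes above 0 on all arrays had a median deviation in mouse 1 close to that of the targets. It was 0.07, and 0.33 as deposited, -0.16 scaled to the array total and -0.47 scaled to control genes. Arnt minus the list median was -1.26 in mouse 1, or -0.84 after the shift to the lowest value. As deposited, 3 of the 19 (15.8%) were lowest and 7 (36.8%) highest in that mouse, against 31.8% and 31.4% of all probes. The targets are shared with many other factors, and several are abundant glycolytic genes of the muscle fibre.

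Ppara, the fatty acid-sensing receptor, varied most between mice among the 3 genes above 0 on all arrays. Its deposited intensity was 0.0083, 0.0213, 0.0345, 0.0149 and 0.0402 in mice 1, 3, 4, 5 and 6 (0.0238 ± 0.0133, SD, n = 5). Mice 4 and 6 were high and mice 1 and 5 low, the highest being 4.84 times the lowest. The value of mouse 1 was 0.494 times the limit on its array, so the lower end of this range is poorly determined.

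After quantile normalisation Ppara was at 0.0234 ± 0.0121 (SD, n = 5), a CV of 51.8%, with 0.00663, 0.0209, 0.0404, 0.0223 and 0.0268 in mice 1, 3, 4, 5 and 6. Mouse 1 remained lowest, and mouse 4 took the highest place from mouse 6, whose whole array was bright. Without mouse 1 the CV was 32.9% and the fold between highest and lowest mouse fell from 6.08 to 1.97. Mouse 1 was lowest for both Ppara and Arnt under all 8 scalings tried on the 5 arrays, though not for Arnt when arrays were only shifted to their lowest value and not scaled. The fold between highest and lowest mouse ran from 2.90 to 9.26 for Ppara and from 1.71 to 5.51 for Arnt, and was 2.04 and 1.93 with the shift alone.

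**Figure D2:**
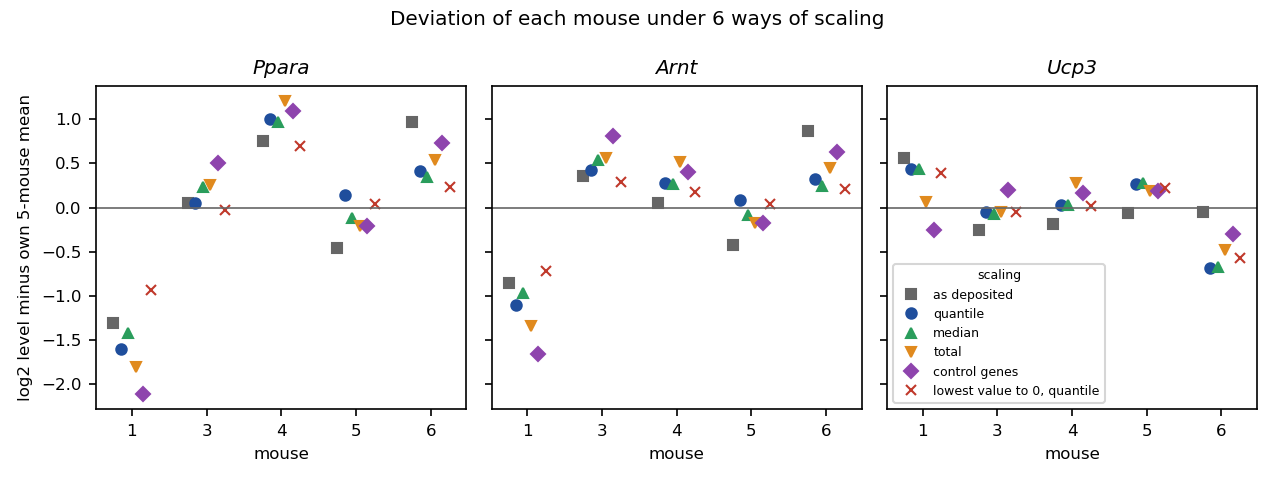
Log2 level of Ppara, Arnt and Ucp3 in each mouse minus the gene's own 5-mouse mean, for 6 of the scalings (symbols): as deposited, quantile, array median, array total, control genes, and quantile after shifting each array's lowest value to 0. Mouse 1 is the lowest for Ppara and Arnt with every symbol, from -0.85 as deposited to -1.66 with control genes for Arnt among the scalings without a shift, whereas Ucp3 in mouse 1 changes from 0.56 as deposited to -0.25 with control genes.

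Pparg, the adipogenic receptor, gave values on both sides of the limit. Its deposited intensity was -0.0012, 0.0236, 0.0312, 0.0047 and 0.0132 in mice 1, 3, 4, 5 and 6 (0.0143 ± 0.0133, SD, n = 5). Mice 3 and 4 were highest, at 4.00 and 7.61 times the limit of their arrays, and mice 1 and 5 lay within it. Unlike Ppara, Arnt and Hif1a, Pparg was not highest on the bright array of mouse 6. Fat cell markers were given by 3 probes. Fabp4 and Lpl were above 0 in all mice and Lipe, hormone-sensitive lipase, in none. Their summed deposited intensity was 0.355, 0.304, 0.318, 0.238 and 0.358 in mice 1, 3, 4, 5 and 6, highest on the bright arrays of mice 6 and 1. The median log2 deviation of Fabp4 and Lpl after quantile normalisation was 0.02, 0.30, 0.32, -0.10 and -0.54 in the same order, so it was highest in mice 3 and 4, where Pparg was highest as well. Lpl as deposited was also highest in mice 4 and 3, at 0.182 and 0.175. Fabp4 did not follow this. It was highest in mouse 1, at 0.228 as deposited and a log2 deviation of 0.28 after quantile normalisation. In mice 3 and 4 Fabp4 was at 0.131 and 0.138 as deposited, with log2 deviations of 0.02 and 0.06. Lpl and Fabp4 are also made by muscle and endothelium, and the part of fat cells in the Pparg values was not tested.

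The fixed list of PPAR partners and targets had 10 genes on the array, none of them a retinoid X receptor. Of these, 9 were above 0 in every mouse, or 90.0% against 65.9% of all probes. The exception was Lipe, from -0.0077 in mouse 1 to -0.0012 in mouse 4. The median CV of the 9 was 31.1% beside 33.1% over all probes, and 27.5% beside 45.2% as deposited. Hadh, a beta-oxidation dehydrogenase, had the smallest, at 13.0%, and Fabp3, the fatty acid carrier of muscle cytosol, the largest, at 57.0%. In mouse 4, the highest mouse for Ppara after quantile normalisation at 1.00 log2 units above its mean (as deposited mouse 6 was highest), the median deviation of the 9 genes was 0.24. In mouse 6 Ppara was at 0.41 and the list at -0.35, and in mouse 1 they were at -1.61 and -0.11. The difference between Ppara and the list median, which scaling by a factor leaves as it is, was -1.33 in mouse 1, 0.70 in mouse 4 and 0.76 in mouse 6 as deposited. With each array shifted to its lowest value and quantile normalised these differences were -0.84, 0.48 and 0.57, so the direction in each of these mice held while the sizes shrank. The list median by itself changed sign in mouse 6, at 0.21 as deposited. The median of all 147 probes above 0 on all arrays was there 0.59 as deposited and 0 after quantile normalisation. In mouse 1 the list median was 0.02 as deposited, -0.48 scaled to the array total and -0.79 scaled to control genes. The median of the 147 probes in mouse 1 was 0.33, -0.16 and -0.47 in the same order.

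Tfam, the mitochondrial transcription factor, could not be measured. Its deposited intensity was -0.005, -0.0001, 0.0023, -0.0064 and -0.0033 in mice 1, 3, 4, 5 and 6 (-0.0025 ± 0.00357, SD, n = 5). The 1 value above 0, in mouse 4, was 0.561 times the limit on that array, so neither a level nor an order of mice can be read from this probe. All 5 genes of the fixed list of mitochondrial gene expression and respiratory chain on the array, in contrast, were above 0 and above the limit in every mouse, which 65.9% and 45.3% of all probes were. They are nuclear genes: Cox4i1, Cox5b, Cox6a2 and Cox8a of cytochrome oxidase, and Mdh2 of the citrate cycle. Their median CV was 14.3%, smallest for Cox6a2 at 6.20% and largest for Mdh2 at 24.5%. The normalised deviation of Cox6a2 was the same, 0.04, in all mice but mouse 5. As deposited the median CV was 31.0%, beside 45.2% over all probes above 0 on all arrays. It was then smallest for Cox4i1 at 28.6% and largest for Cox8a at 36.5%, with Cox6a2 at 32.7%.

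**Figure D3:**
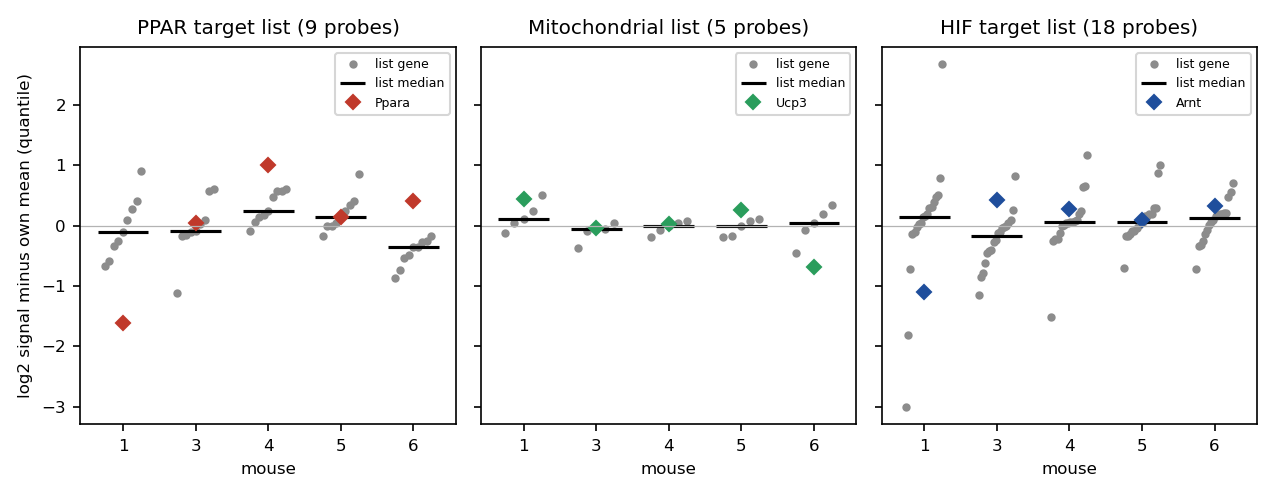
Log2 quantile-normalised signal minus each gene's own 5-mouse mean, by mouse, for the measured genes of the PPAR list (9), the mitochondrial list (5) and the HIF target list (18). Grey points are genes, black bars list medians and coloured diamonds the regulators Ppara, Ucp3 and Arnt. In mouse 1 the diamonds of Ppara and Arnt lie at -1.61 and -1.11, under list medians of -0.11 and 0.15.

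Ucp3, the mitochondrial carrier, was the most firmly measured of the 6 genes. Its deposited intensity was 0.0894, 0.051, 0.0534, 0.058 and 0.0585 in mice 1, 3, 4, 5 and 6 (0.0621 ± 0.0156, SD, n = 5), between 5.32 and 13.0 times the limit of each array. Mice 3 to 6 lay close together, and mouse 1 was at 1.75 times the lowest. After quantile normalisation Ucp3 was at 0.0641 ± 0.0171 (SD, n = 5), a CV of 26.7%, with 0.0842 in mouse 1 and 0.0387 in mouse 6. The high place of mouse 1 depended on the scaling: it held in 6 of 8 scalings, but with scaling to the array total mouse 4 was highest, and with scaling to control genes mouse 3 was, with mouse 1 at a log2 deviation of -0.25. Mouse 6 was lowest in 7 of 8, the exception being the values as deposited, where mouse 3 was lowest. Without mouse 6 the CV was 14.8%. The control genes were Gapdh, Pgk1 and Ywhaz, with CVs from 18.1% for Gapdh to 53.9% for Ywhaz, all highest in mouse 1 as deposited. Hprt, at or below 0 in mouse 5, was not used.

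A ratio of 2 probes on the same array does not depend on the scaling of that array. The ratio of Ppara to Ucp3, relative to its own geometric mean over the mice, was 0.275, 1.24, 1.91, 0.760 and 2.03 in mice 1, 3, 4, 5 and 6. It was lowest in mouse 1 and highest in mouse 6, a 7.40-fold range, which was at percentile 75.9 of the ranges of all 10731 pairs of probes above 0 on all arrays (median 3.64-fold). The ratio of Arnt to Ucp3 had a 5.03-fold range (percentile 63.9), again lowest in mouse 1 and highest in mouse 6. Without mouse 1 these ranges were 2.67-fold and 2.43-fold, against a median of 2.32-fold over all pairs. The ratio of Ppara to Arnt had a 2.23-fold range (percentile 22.0). The low end of all 3 ranges was mouse 1, where Ppara and Arnt lay under the limit, so these folds are poorly determined, and unlike scaling a shift of the background changes them. With each array shifted to its lowest value the ranges were 3.12-fold for Ppara to Ucp3, 2.73-fold for Arnt to Ucp3 and 1.80-fold for Ppara to Arnt, against a median of 2.37-fold over all pairs.

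Mouse 1 was the lowest as deposited for 4 of the 6 genes, Hif1a, Arnt, Ppara and Pparg, and the highest for Ucp3. Over all 223 probes mouse 1 was lowest for 31.8% and highest for 31.4%. The probes of these 4 genes (12B, 12C, 12F and 12G) all have 12 in their identifier, unlike those of Tfam and Ucp3. Among the 7 other probes numbered 12, mouse 1 was lowest for 4 and highest for 3. The sources used here do not say what the number means, and its part in the low values was not tested. Among the 49 other probes whose median over mice 3 to 6 lay between 0.00745 and 0.0279, the span of these 4 genes, mouse 1 was lowest for 30.6%, and among the 96 other brighter probes for 20.8%. With each array shifted so that its lowest value was 0, without further scaling, mouse 1 was lowest for 1 of the 6, Ppara, at 0.0251 against 0.0252 in mouse 5. The median log2 deviation of the 7 endothelial markers was also lowest in mouse 1 after quantile normalisation. It was -0.41, -0.07, 0.21, 0.21 and 0.16 in mice 1, 3, 4, 5 and 6. As deposited it was lowest in mouse 3, at -0.40, with mouse 1 at -0.34. The single markers differed. After normalisation Flt1, Tek and Cdh5 were lowest in mouse 1 (-3.00, -1.38 and -0.41), and Cd34 was equally low in mice 1 and 3 (-0.07). Pecam1 and Kdr were lowest in mouse 3 (-0.57 and -0.45), and Nos3 was highest in mouse 1 (1.49). In mouse 1 the deposited values of Flt1, Tek and Nos3 were 0.003, 0.0019 and 0.0087. These lay under the limit of that array, 0.0168, so their deviations in mouse 1 are poorly determined. As deposited 1 of the 7 (14.3%) was lowest in mouse 1. The summed deposited intensity of the endothelial markers ran from 0.373 in mouse 3 to 0.879 in mouse 6. Their part in the Ppara and Arnt values was not tested. How far the background of that array sets these low values was not tested beyond this shift.

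The spread of each gene between mice was set against that of probes of like signal with limma. The SD of log2 signal was 1.88 times the trend for Ppara, 1.28 times for Arnt and 0.962 times for Ucp3. None was called wider (limma, adjusted p = 0.89 for Ppara and Arnt and 0.97 for Ucp3) or narrower (limma, adjusted p = 0.97, 0.96 and 0.96). Over all 146 probes tested, 0 (0%) were called in either direction, and at an unadjusted p below 0.05 (limma) 4.79% were wider and 5.48% narrower. The other 3 genes could not be fitted because they were not above 0 on all arrays. Csf2rb2 at 3.82 times and Flt1 at 3.34 times the trend were not called either after quantile normalisation. A spread such as that of Ppara could thus hardly be called with 5 arrays. With 5 arrays and no repeat array per mouse, measurement noise and differences between animals cannot be told apart.

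**Figure D4:**
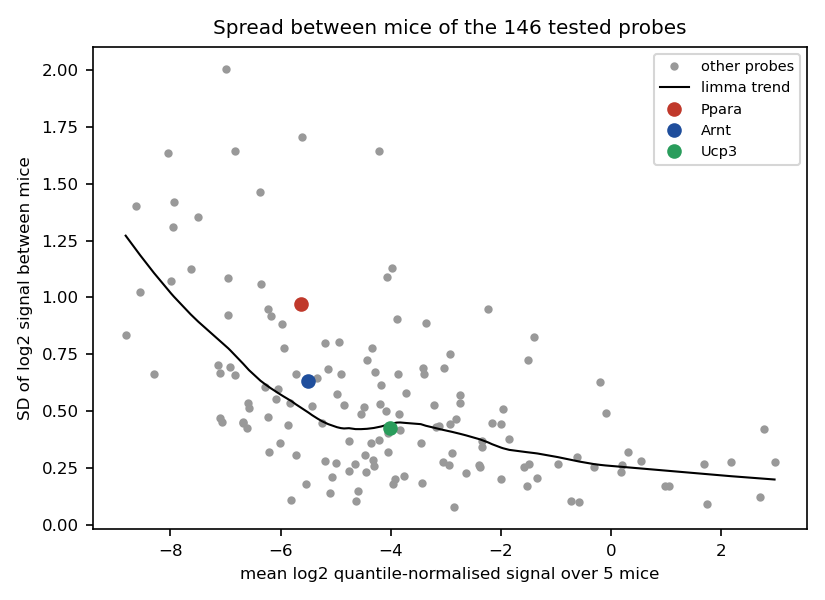
SD between mice of the log2 quantile-normalised signal against its mean for the 146 tested probes, with the limma trend (line). Ppara lies above the trend, at 1.88 times it, Arnt at 1.28 times and Ucp3 on it at 0.962 times, all within the cloud of other probes.

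The genes with the profile most like each regulator were taken as those with the smallest root mean square difference of log2 deviations over the 5 mice, among 139 other named probes. For Ppara they were Pold1, a DNA polymerase subunit, at 0.19, and Vegfd, a lymphatic growth factor, at 0.37, with a median of 0.93 over all. Mouse 1 was the lowest for Pold1 and Vegfd, at -1.42 and -1.14, as it was for Ppara at -1.61. Both were picked for their likeness to Ppara, so the shared low mouse follows from that choice. The probe of Pold1 is 12L, so it is numbered 12 as that of Ppara is. Arnt ranked 5 in likeness to Ppara, at 0.43. For Arnt they were the cyclin Ccna1 at 0.13 and the muscle transcription factor Mef2a at 0.20, with a median of 0.68. For Ucp3 they were Acadl, a long-chain acyl-CoA dehydrogenase, at 0.12, and Slc2a4, the insulin-responsive glucose transporter, at 0.13, with a median of 0.56, and Ppara and Arnt ranked 127 and 111. Pold1 and Ccna1 also came first with the values as deposited, whereas for Ucp3 the first place passed to Myh1. As deposited the second places went to Vcam1 for Ppara, Plau for Arnt and Myh4 for Ucp3. The likeness is a description over 5 mice.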

How the data were processed

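The authors deposited linear array intensities for 223 probes in 5 samples. The sources used here do not name scanner, background correction or scaling. Column medians differed by more than 10%, so log2 values of the 147 probes above 0 on all arrays were quantile normalised. Deposited values are given for all 6 genes. The platform annotation named 205 probes with 1 symbol and left 18 unnamed, and 204 symbols matched GRCm38.p6 through the gene identifier. Spread was judged as log2 variance relative to a robust trend in mean signal (limma 3.58.1, statmod 1.5.0, R 4.3.3, Benjamini-Hochberg at 0.05), leaving out 1 probe constant after normalisation. The script was tested on simulated data, in which the planted spreads were wider relative to the trend than that of Ppara. The labels do not say how animals were sampled, and the p-values compare probes, not mice. Members and lists were chosen with earlier results of these data known. Named were the members, the 2 likest genes, and from each list those at or below 0 on an array and those with the smallest and largest CV. Alternatives were 4 other scalings, linear quantiles over all probes, leaving out the dimmest 25% or each mouse, stricter limits, and, added after seeing the data, the shift. A CV was taken as moved beyond 1.5 times. Promoters came from RefSeq. Figures used matplotlib 3.10.9.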

Additional observations from a re-analysis of the deposited data

Results flagged for a closer look

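Of 9 sets of 5 values checked for a mouse far from the others (the deposited level of each of the 6 genes and the quantile-normalised level of 3), 1 met Dixon's criterion: the deposited level of Ucp3, where mouse 1 at 0.0894 stood apart from 0.051 to 0.0585, with a gap of 0.805 of the range. Chance gives about 1 in 20 such sets. After quantile normalisation the largest gap of Ucp3 was 0.472, at mouse 6, below the critical value of 0.71.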

How the results depend on the processing

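The count of genes above 0 on all 5 arrays, 3, was 1 with the size of the array's lowest value as the limit (Ucp3) and 1 with the array's median as the limit, and ran from 3 to 5 when each mouse was left out, with 5 without mouse 1. The CV of Ppara, 51.8%, ran from 32.9% (without mouse 1) to 62.4% with each mouse left out and stayed within 1.5 times of its value in the other settings. The CV of Arnt, 32.9%, ran from 10.6% (without mouse 1) to 38.4% with each mouse left out and was 19.9% without the dimmest 25% of probes, which raises the values that low signals receive. The CV of Ucp3, 26.7%, ran from 14.8% (without mouse 6) to 30.4% with each mouse left out and was 16.7% with scaling to control genes. The cause was not tested. With each array shifted to its lowest value before normalisation the CVs were 37.0%, 23.8% and 23.4%. The count of probes wider than the trend, 0, was 2 as deposited, Thbs2 and Csf2rb2 and thus none of the 6 genes, and 0 in the other 10 settings. The count of narrower probes was 0 in all 11. For the 3 fitted genes the limma adjusted p ran from 0.77 to 0.998 over both directions and all settings. No paired analysis was possible because the labels give 1 group. Signal over background limits Hif1a, Pparg and Tfam most, and Ppara and Arnt in mouse 1.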
